A study of Mus musculus with 3 samples.

Results

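The protein-making and protein-importing machinery of mitochondria was compared between ureteric tree cells and the other cells of the embryonic mouse kidney. Its genes were taken by name: Mrpl genes for the large subunit of the mitochondrial ribosome, Mrps genes for the small subunit, and Timm and Tomm genes for the translocases of the inner and outer membrane. The array annotation listed 97 such genes, and 77 of them had a value on all 3 arrays (37 Mrpl, 22 Mrps and 18 Timm or Tomm genes), out of 3915 genes with values on all 3. The GFP+ cells came from kidneys of HoxB7-GFP transgenic mice at 15.5 days post coitum, both sexes pooled, in which the HoxB7 promoter drives green fluorescent protein in the ureteric tree, the branching epithelium that forms the collecting ducts. The GFP- cells were the remaining sorted cells of the same transgenic kidneys, a mixture of nephron progenitors, early nephrons, stroma, endothelium and blood cells. Each array held amplified RNA of both fractions in its 2 channels, and its values are log2 ratios, likely of GFP+ over GFP-, since no source used here names the dye of either channel. A positive ratio is called higher in GFP+ cells throughout.

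Mitochondria keep a small genome whose protein-coding genes all specify subunits of the respiratory chain and ATP synthase, and a ribosome of their own translates them. All proteins of that ribosome, and nearly all other mitochondrial proteins, are encoded in the nucleus, made in the cytosol and imported through the TOM complex of the outer membrane. The TIM23 complex then carries proteins with a cleavable presequence into the matrix, and the TIM22 complex, served by small TIM chaperones of the intermembrane space, inserts carrier proteins into the inner membrane. Kidney epithelia that pump salt are rich in mitochondria in the adult.

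The 4 measured ureteric epithelium markers of 14 listed, Cldn7, Gata3, Krt8 and Cldn3, had mean log2 ratios between 2.03 and 2.36, while all 21 measured markers of cap mesenchyme, stroma, endothelium, macrophages and erythroid cells had negative means. The 10 other ureteric markers, Ret, Wnt11 and Hoxb7 among them, were in the array annotation but had no value on any of the 3 arrays. Over all probes, arrays 2 and 3 correlated with r = 0.879, and array 1 correlated with them at only 0.0783 and 0.217, so results are given array by array. In RNA of sorted pools, fewer cells of a type and less RNA per cell cannot be told apart.

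No gene of the mitochondrial ribosome or of import passed the test for a difference between the fractions, but their ratios leaned upward. The mean log2 ratio was positive for 62 of 77 genes (80.5%), against 54.9% of all 3915 genes tested, and their median was 0.22 against 0.034 for all genes. The median was 0.31 for the small subunit, 0.25 for the large subunit and 0.096 for import genes. By limma with Benjamini-Hochberg adjustment over all genes, 0 of the 77 had an adjusted p below 0.05, where 2.78% of all genes passed, 1.38% as higher and 1.4% as lower. At an unadjusted p below 0.05, 12 of the 77 (15.6%) were higher and 0 lower, against 8.43% and 6.41% of all genes. With an ordinary one-sample statistic, which shares no variance between genes, 8 of the 77 were higher and 1 lower at that unadjusted threshold, against 7.25% and 4.78% of all genes. The smallest absolute mean that passed in any gene was 0.89, and only Mrps6 came close to it with a mean of 0.88. The median 95% interval of a gene's mean reached 0.445 to either side in the fit of all 3 arrays. Shifts of the size of these medians could therefore not be called gene by gene in that fit.

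**Figure D1:**
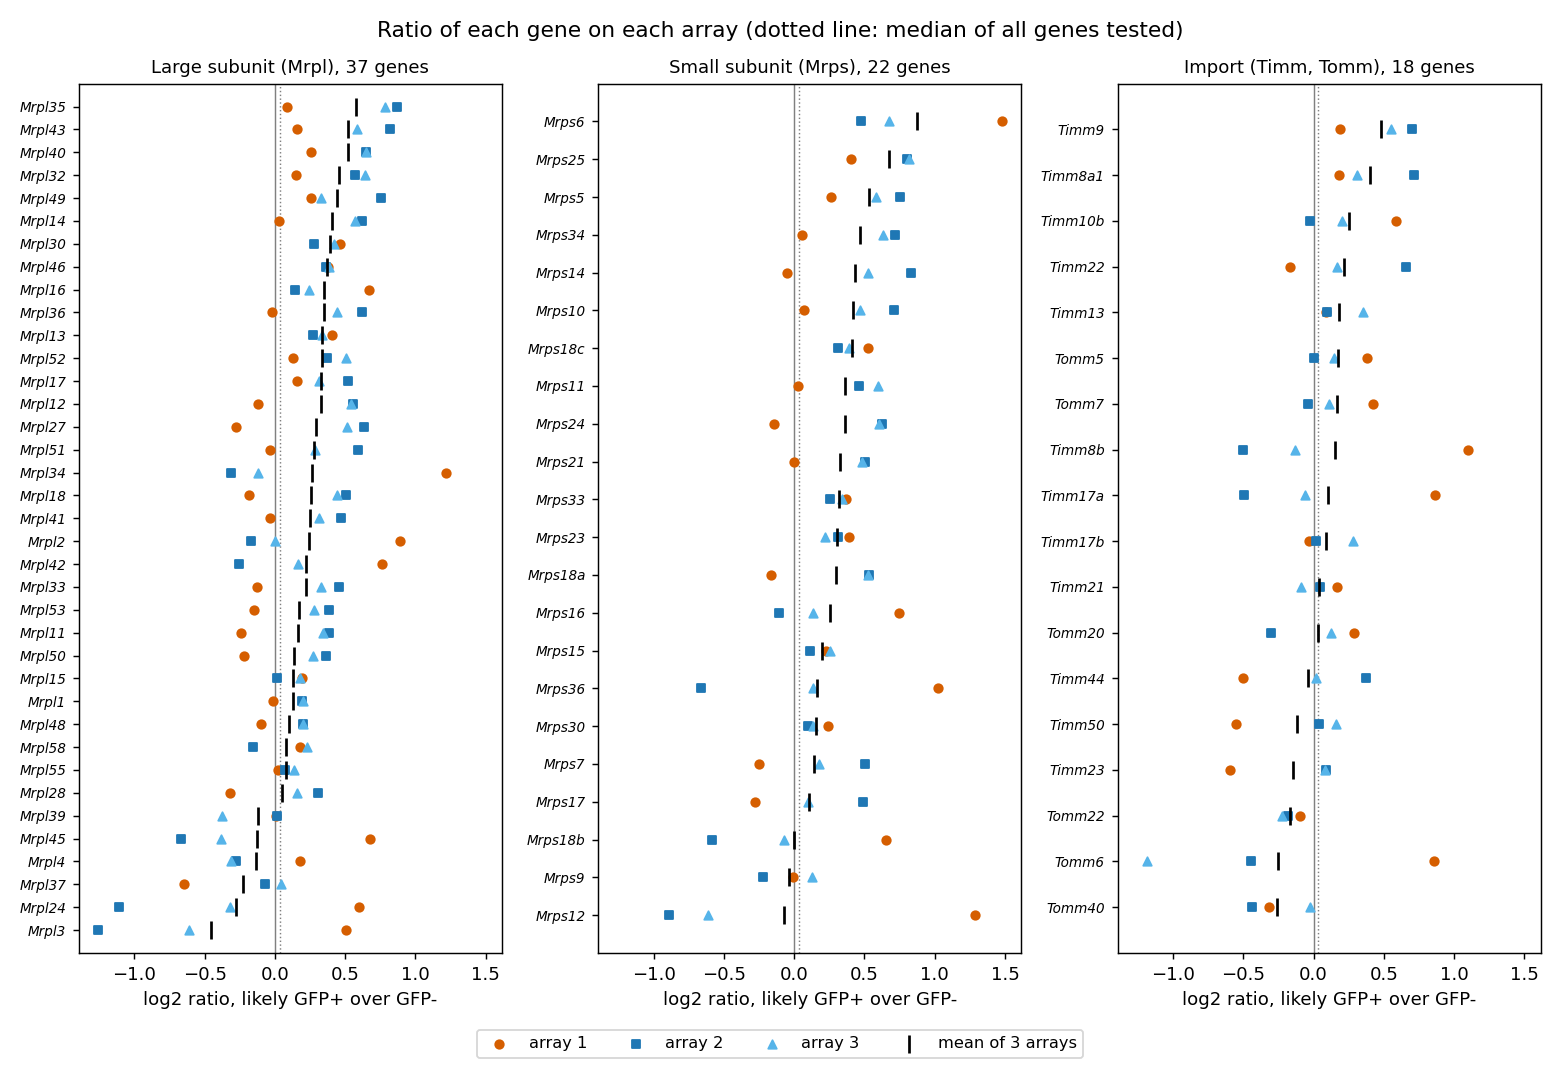
Log2 ratio (x axis, likely GFP+ over GFP-) of each of the 77 genes (y axis, ordered by mean within each class) on arrays 1, 2 and 3, with the mean of the 3 arrays as a black bar. Most means lie to the right of 0 in both subunits, and array 1 lies apart from arrays 2 and 3 for many genes.

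Among small subunit genes, Mrps6 had the highest mean of all 77. Its protein is the counterpart of bacterial S6, which pairs with S18 on the platform of the subunit. Mrps6 had log2 ratios of 1.48, 0.48 and 0.67 on arrays 1, 2 and 3, a mean of 0.88 ± 0.53 (SD, n = 3 arrays) or 1.84-fold (limma adjusted p = 0.159). It was the single gene of the 77 (1.3%) to pass without array 2 (mean 1.08, adjusted p = 0.0183). In that setting 1.25% of all genes were called higher and 1.79% lower. With array 1 left out Mrps6 passed too (mean 0.58, adjusted p = 0.00951), where 27.5% of all genes were called higher. With array 3 left out it did not pass (mean 0.98, adjusted p = 0.34). In the mouse annotation Mrps6 overlaps Slc5a3, a myo-inositol transporter gene, whose own probe had no value on any array. Such an overlap with another protein-coding gene held for 21 of the 77 genes, among them Mrps25, which overlaps Nr2c2. Mrps25, a protein found in mitochondrial but not bacterial ribosomes, had 0.40, 0.80 and 0.82, a mean of 0.68 ± 0.23 or 1.60-fold (adjusted p = 0.139, the smallest of the 77). Mrps5, the counterpart of bacterial S5 near the path of the messenger, had 0.26, 0.76 and 0.58 (mean 0.53 ± 0.25, adjusted p = 0.234). These 3 genes were positive on every array, and they rank at the 98.2, 96.9 and 94.6 percentile of all mean ratios.

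Of the 22 small subunit genes, 19 had a positive mean and 11 were positive on all 3 arrays, a pattern shown by 20.7% of all genes. Mrps18c had closely spaced ratios of 0.53, 0.31 and 0.39, and Mrps33, Mrps23, Mrps15 and Mrps30 had SDs between 0.059 and 0.084 around means of 0.32, 0.31, 0.20 and 0.16. Mrps34 (0.47 ± 0.36), Mrps10 (0.41 ± 0.33) and Mrps11 (0.36 ± 0.30) were also positive on all arrays, with array 1 lowest in each. A further 6 genes, Mrps14, Mrps24, Mrps21, Mrps18a, Mrps7 and Mrps17, were positive on arrays 2 and 3 and negative on array 1. The lowest mean belonged to Mrps12, the counterpart of S12 at the decoding centre, with 1.28, -0.89 and -0.61 (mean -0.075 ± 1.18). Its arrays disagreed more than those of any other of the 77 genes, and its mean carries no direction. Mrps9 (-0.035 ± 0.17) and Mrps18b (-0.0013 ± 0.62) were the others below 0.

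The Mrps18 family holds 3 paralogues of bacterial S18, of which the products of Mrps18b and Mrps18c lie in the small subunit and that of Mrps18a in the large. Mrps18c was positive on every array, Mrps18a had -0.17, 0.53 and 0.53, and Mrps18b had 0.65, -0.58 and -0.074. The paralogues therefore had 3 different patterns over the same arrays, none of them past the threshold. Mrps30, like Mrps18a, is placed in the large subunit by structures, and Mrps36 is now known as a subunit of the oxoglutarate dehydrogenase complex. Mrps36 had 1.02, -0.67 and 0.14 (mean 0.16 ± 0.84). Regrouped by structure, 39 large subunit genes had a median of 0.25 and 19 small subunit genes a median of 0.33, close to the values by name.

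In the large subunit, 31 of 37 genes had a positive mean and 14 were positive on all 3 arrays. Mrpl35, the counterpart of bacterial L35, had the highest mean, with 0.083, 0.87 and 0.78 on arrays 1, 2 and 3 (0.58 ± 0.43, adjusted p = 0.28). Mrpl43 had 0.16, 0.82 and 0.59 (0.52 ± 0.33), and Mrpl40 had 0.26, 0.65 and 0.65 (0.52 ± 0.22, adjusted p = 0.235). Both encode proteins without a bacterial counterpart, and in all 3 genes array 1 gave the lowest ratio. Mrpl32, whose precursor is cleaved by an inner-membrane protease before assembly, had 0.15, 0.57 and 0.64, and Mrpl49 had 0.26, 0.75 and 0.32. Mrpl46 was the steadiest of the 77 genes, with 0.37, 0.36 and 0.38 (SD 0.011). Mrpl30 (0.39 ± 0.096) and Mrpl13 (0.34 ± 0.069) were similarly even. In these last 3 genes no array stood apart. Of the 77 genes, 9 (11.7%) had an SD below 0.1, near the 9.66% of all genes tested.

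Mrpl12, which forms the flexible stalk that recruits translation factors and has also been found to bind the mitochondrial RNA polymerase, had -0.12, 0.56 and 0.54 (0.33 ± 0.39). The same order, negative on array 1 and positive on the other arrays, held for 13 large subunit genes, among them Mrpl27, Mrpl51, Mrpl18, Mrpl41, Mrpl33, Mrpl53, Mrpl11 and Mrpl50. Mrpl14, Mrpl16, Mrpl52 and Mrpl17 were positive throughout, with means between 0.33 and 0.40. Mrpl34 had a positive mean only through array 1, with 1.22, -0.31 and -0.12, and Mrpl2 and Mrpl42 also had their high value on array 1 (0.89 and 0.76). The 6 negative means were those of Mrpl3, Mrpl24, Mrpl37, Mrpl4, Mrpl45 and Mrpl39. Mrpl3, the counterpart of L3 next to the peptidyl transferase centre, was lowest at 0.50, -1.26 and -0.61 (-0.45 ± 0.89, adjusted p = 0.587). No large subunit gene was negative on all 3 arrays, against 15.3% of all genes.

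The ribosomal proteins were also divided by origin, into those with a bacterial counterpart and those specific to mitochondria, a division made after the values were seen and not tested. The 37 genes with a bacterial counterpart had a median of 0.29, and the 21 mitochondria-specific genes had 0.25. Positive means were found for 31 of the 37 and for 18 of the 21. The spread over arrays was smaller in the mitochondria-specific genes, with a median SD of 0.235 against 0.333, and all 5 such genes named Mrps were positive on all arrays. Some of the widest gaps between arrays, in Mrps12, Mrpl3, Mrpl34 and Mrpl24, fell in genes with a bacterial counterpart, as well as in Mrps36 and the mitochondria-specific Mrpl45.

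Import genes had a lower median than either subunit on arrays 2 and 3, and on array 1 their median lay between the subunits. The large subunit median minus the import median was -0.046, 0.35 and 0.17 on arrays 1, 2 and 3, and the small subunit median minus the import median was 0.060, 0.46 and 0.25. The small subunit median lay above the large subunit median by 0.11, 0.11 and 0.079. The last difference averaged 0.098 ± 0.016 (SD, n = 3 arrays), an SD over arrays of the same genes and not over genes. With 3 arrays no sign-based exact permutation test can go below p = 0.25, so these differences were not tested. The import median of 0.096 was 0.16 without array 2, 0.14 without array 3 and 0.052 after each array was centred on its median.

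**Figure D2:**
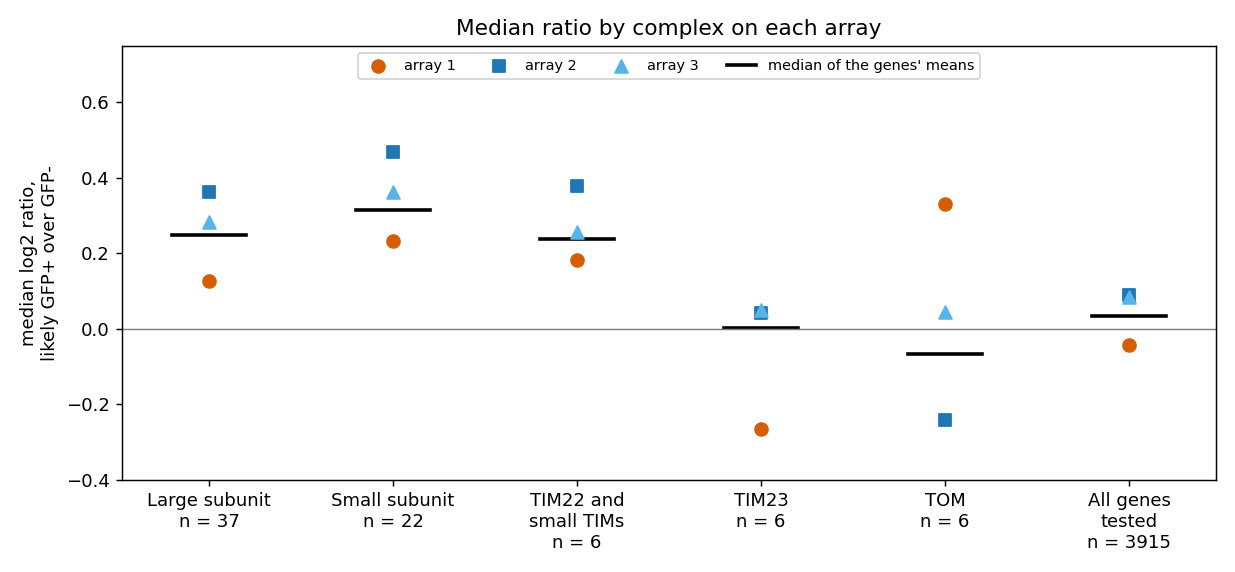
Median log2 ratio (y axis, likely GFP+ over GFP-) of the genes of each complex and of all genes tested, on each array (points), with the median of the genes' means as a black line. Both ribosomal subunits and the TIM22 group lie above all genes tested on every array, whereas the TIM23 and TOM medians change sign between arrays.

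Within import, the TIM22 complex and its small chaperones had the highest median, 0.24 over 6 genes, all with a positive mean. Timm9, which joins Timm10 in a hexamer that escorts carrier proteins, had 0.19, 0.70 and 0.55 on arrays 1, 2 and 3 (0.48 ± 0.26 or 1.40-fold, adjusted p = 0.283), the single import gene with an unadjusted p below 0.05. Timm8a1, whose human counterpart is mutated in a deafness-dystonia syndrome, had 0.18, 0.71 and 0.31 (0.40 ± 0.28). Its partner Timm13 had 0.087, 0.096 and 0.35 (0.18 ± 0.15). These 3 were positive on every array. The paralogue Timm8b differed from Timm8a1 in pattern, with 1.10, -0.50 and -0.13 (0.15 ± 0.84). Timm22, the channel of the complex, had -0.16, 0.66 and 0.16, and Timm10b had 0.59, -0.025 and 0.20.

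In the TIM23 complex, the median was 0.0019 over 6 genes and 0 were positive on all arrays. Timm23, its channel, had -0.59, 0.085 and 0.079 (-0.14 ± 0.39). Timm50, the receptor that hands presequences to the channel, had -0.55, 0.036 and 0.16, and Timm44, which tethers the Hsp70 motor on the matrix side, had -0.50, 0.37 and 0.019. All 3 were lowest on array 1, where their values lay close together. Timm17a and Timm17b, paralogues that occupy the same place beside Timm23, had means of 0.10 ± 0.69 and 0.089 ± 0.17. They agreed in mean but not in pattern, as Timm17a had 0.86, -0.50 and -0.057 while Timm17b stayed between -0.029 and 0.28. Timm21, which links the translocase to respiratory chain assembly, had 0.041 ± 0.13.

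The TOM complex had the lowest median, -0.067 over 6 genes, with 3 positive and 3 negative means. Tomm40, the pore of the outer membrane, had -0.32, -0.44 and -0.025 (-0.26 ± 0.21, adjusted p = 0.533), and Tomm22, its central receptor, had -0.097, -0.18 and -0.23 (-0.17 ± 0.066, adjusted p = 0.665). These were the only 2 of the 77 genes negative on all 3 arrays. The presequence receptor Tomm20 had 0.28, -0.30 and 0.12. Among the small stabilising subunits, Tomm5 had 0.38, 0.0058 and 0.14, Tomm7 had 0.42, -0.038 and 0.11, and Tomm6 had 0.86, -0.44 and -1.18 (-0.26 ± 1.04). All 3 were positive on array 1, and on the other arrays Tomm5 and Tomm7 stayed near 0 while Tomm6 was negative.

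Array 1 ran against the other arrays within these genes. Across the 77 genes, which are not independent replicates and share the arrays' normalization, array 1 correlated with the mean of arrays 2 and 3 at Pearson's r = -0.413, whereas arrays 2 and 3 correlated at 0.809. Over all genes tested the same values were 0.172 and 0.883. Other sets showed the same turn of array 1, with -0.527 and 0.760 over 62 genes of respiratory chain and ATP synthase subunits and -0.609 and 0.485 over 63 cytosolic ribosomal protein genes, so it was not particular to the mitochondrial ribosome and import genes. There were 24 genes negative on array 1 and positive on both others, 31.2% against 31.0% of all genes, and 10 genes positive on array 1 and negative on both others, 13.0% against 19.0%. Array 1 exceeded the mean of the others by more than 1 in 9 genes, Mrps12, Tomm6, Mrpl3, Mrpl34, Timm8b, Mrpl24, Mrps36, Mrpl45 and Timm17a, and lay below it by more than 1 in 0. That share of 11.7% was near the 10.4% of all genes. On array 2 all 9 were negative, between -1.26 and -0.31, and on array 1 all were positive, between 0.50 and 1.28. These opposite signs follow in part from choosing the genes by that gap.

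**Figure D3:**
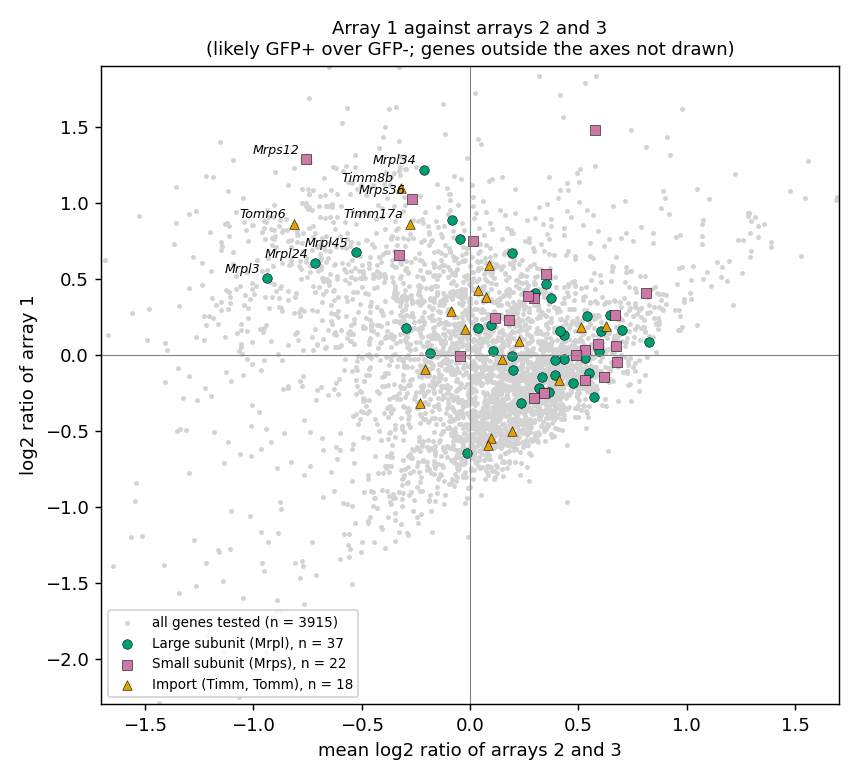
Log2 ratio of array 1 (y axis) against the mean of arrays 2 and 3 (x axis) for the 77 genes, coloured by class, over all genes tested (grey). The 9 named genes were chosen because array 1 exceeded the mean of arrays 2 and 3 by more than 1. They lie at the upper left, positive on array 1 and negative in that mean. Most ribosomal genes lie to the right of 0.

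Without array 1, limma called 35 of the 77 genes higher (45.5%) and 6 lower, where 27.5% of all genes were called higher and 18.8% lower. The 35 comprised 21 large subunit, 12 small subunit and 2 import genes, with Timm9 and Timm8a1 as the import genes. Mrpl35 (mean of arrays 2 and 3 0.82, adjusted p = 0.00317), Mrps25 (0.81, 0.00317), Mrps34 (0.67, 0.0051) and Mrpl40 (0.65, 0.00537) had the smallest adjusted p among them. The 6 called lower were Mrpl3 (-0.93), Tomm6 (-0.81), Mrps12 (-0.75), Mrpl24 (-0.71), Mrpl45 (-0.53) and Mrpl4 (-0.30). Each of these 6 was positive on array 1. The labels do not say whether arrays 2 and 3 came from separate pools of cells, and this setting rests on those 2 arrays alone.

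A share of 79.4% of the annotated genes of this machinery had values on all 3 arrays, against 25.9% of the 15096 genes in the annotation. By class it was 88.0% of small subunit, 78.7% of large subunit and 72.0% of import genes. The deposited values are described as filtered by a rule that the sources used here do not give. With values on 2 arrays, Mrps22 had -0.16 and 0.42 and Mrps28 had 0.13 and 0.90 on arrays 1 and 2, and Timm29 had 0.37 and -0.22 on arrays 1 and 3. Mrpl44 had -0.95 on array 3 alone and Tomm70a, a receptor for carrier proteins, -0.41 on array 2 alone. The other 15 genes had no value: Mrpl9, Mrpl10, Mrpl19, Mrpl20, Mrpl21, Mrpl23, Mrpl38, Mrpl54, Mrpl57, Mrps31, Timm10, Timmdc1, Tomm20l, Tomm34 and Tomm40l.

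Genes that work with this machinery under other names did not pass the test either. Of 19 measured genes of import, sorting and protein processing among 31 listed, 12 had a positive mean and the median was 0.11. Dnajc15, a J-protein of the import motor, had 0.64, 0.41 and 0.73 (0.59 ± 0.16, adjusted p = 0.167), and its paralogue Dnajc19 had 0.33 ± 0.14. Grpel1, the nucleotide exchange factor of the mitochondrial Hsp70, had 0.43 ± 0.23, and Mtx2, a metaxin of the outer membrane, had 0.38 ± 0.19. Dnajc15, Dnajc19, Grpel1 and Mtx2 were positive on all arrays. The motor Hsp70 itself, Hspa9, had 0.52, -0.63 and -0.60, and the folding chaperonin Hspd1 had -0.76, -0.19 and -0.21 while its co-chaperonin Hspe1 had 0.66, 0.26 and -0.026. Of 7 measured translation and assembly factors among 31 listed, 2 had a positive mean, the initiation factors Mtif3 (0.26 ± 0.30) and Mtif2 (0.26 ± 0.030), and the recycling factor Mrrf (-0.24 ± 0.31) and the tRNA-modifying enzyme Gtpbp3 (-0.23 ± 0.033) were lowest.

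Among 6 measured tRNA synthetases of 20 listed, 5 had a positive mean and the median was 0.14, with Gars (0.27 ± 0.15), Kars (-0.27 ± 0.30), Vars2 (0.20 ± 0.18) and Wars2 (0.19 ± 0.37) largest in size; Gars and Kars also serve the cytosol. The 3 measured genes of mitochondrial DNA upkeep and transcription among 17 listed had negative means, namely the DNA polymerase Polg (-0.37 ± 0.36), the transcription elongation factor Tefm (-0.23 ± 0.49) and the nucleoside kinase Dguok (-0.088 ± 0.56). Of 9 listed regulators of mitochondrial genes, Pprc1 alone had values on all 3 arrays (-0.26 ± 0.23). Yy1 had a value on 1 array, and Nrf1 and Gabpa had none. Dap3 (-0.29 ± 0.12) and Chchd1 (0.24 ± 0.26), small subunit proteins under other symbols, had means of opposite sign. For scale, 62 genes of respiratory chain and ATP synthase subunits had a median of 0.28 and 63 cytosolic ribosomal protein genes had -0.078, and 0 of either set passed. At an unadjusted p below 0.05 those sets held 9 higher and 0 lower, and 0 higher and 1 lower.

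Promoters were read because the ratios of most ribosomal genes leaned the same way, and because nuclear genes for mitochondrial proteins are known for binding sites of NRF1, of the ETS factor GABPA and of YY1. The sequences are those of RefSeq on GRCm38.p6, from 250 bases before to 50 after the first listed start of a gene, and 71 of the 77 genes had one. Motifs were searched on both strands as CCGGAAG for ETS factors, GCGCATGC for NRF1, AAGATGGC for YY1, GGGCGG for SP1 and CACGTG for the E-box. A second NRF1 form, GCGCA and GCGC with 1 base between them, was searched too, and it can overlap the first. It is longer than the first form, and a promoter can hold either form without the other. The genes of highest and lowest mean ratio in each class are shown 5′ to 3′, to set the ends of each class side by side, with every motif match in capitals. Large subunit, highest then lowest mean:
Mrpl35, chr6:71823735-71824034, minus strand: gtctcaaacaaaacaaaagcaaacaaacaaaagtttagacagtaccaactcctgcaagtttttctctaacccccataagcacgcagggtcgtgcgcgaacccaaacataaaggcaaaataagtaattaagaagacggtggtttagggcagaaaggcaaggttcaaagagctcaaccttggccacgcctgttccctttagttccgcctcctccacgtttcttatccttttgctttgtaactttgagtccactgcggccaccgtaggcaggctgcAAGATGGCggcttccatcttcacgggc
Mrpl3, chr9:105053018-105053317, plus strand: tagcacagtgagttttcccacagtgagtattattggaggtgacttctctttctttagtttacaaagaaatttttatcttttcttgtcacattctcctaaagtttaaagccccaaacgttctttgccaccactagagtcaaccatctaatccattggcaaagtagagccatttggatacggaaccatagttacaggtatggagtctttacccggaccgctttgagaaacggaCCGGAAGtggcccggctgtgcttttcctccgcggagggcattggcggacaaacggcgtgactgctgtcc
Small subunit, highest then lowest mean:
Mrps6, chr16:92058086-92058385, plus strand: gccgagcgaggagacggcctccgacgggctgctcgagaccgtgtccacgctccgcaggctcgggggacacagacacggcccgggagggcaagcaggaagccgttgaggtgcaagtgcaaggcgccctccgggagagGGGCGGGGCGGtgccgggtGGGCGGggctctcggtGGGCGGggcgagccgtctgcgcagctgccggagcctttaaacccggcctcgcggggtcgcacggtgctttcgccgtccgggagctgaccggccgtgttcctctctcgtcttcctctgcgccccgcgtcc
Mrps12, chr7:28741772-28742071, minus strand: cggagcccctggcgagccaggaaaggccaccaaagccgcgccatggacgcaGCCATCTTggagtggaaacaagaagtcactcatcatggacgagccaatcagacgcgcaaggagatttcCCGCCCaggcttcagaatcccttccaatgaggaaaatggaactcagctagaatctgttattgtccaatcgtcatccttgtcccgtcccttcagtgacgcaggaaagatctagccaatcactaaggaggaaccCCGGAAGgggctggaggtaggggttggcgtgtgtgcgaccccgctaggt
Import, highest then lowest mean:
Timm9, chr12:71136626-71136925, minus strand: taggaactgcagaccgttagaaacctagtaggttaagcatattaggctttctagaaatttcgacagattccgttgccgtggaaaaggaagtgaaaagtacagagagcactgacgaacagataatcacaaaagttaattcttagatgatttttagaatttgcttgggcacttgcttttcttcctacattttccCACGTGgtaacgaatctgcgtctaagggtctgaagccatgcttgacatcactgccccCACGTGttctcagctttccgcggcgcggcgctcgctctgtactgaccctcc
Tomm40, chr7:19715380-19715679, minus strand: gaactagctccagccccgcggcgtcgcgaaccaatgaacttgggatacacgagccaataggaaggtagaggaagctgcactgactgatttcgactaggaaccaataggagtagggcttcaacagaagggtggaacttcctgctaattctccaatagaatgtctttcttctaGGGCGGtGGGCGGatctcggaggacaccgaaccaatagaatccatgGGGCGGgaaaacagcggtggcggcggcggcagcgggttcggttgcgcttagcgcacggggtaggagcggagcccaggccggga

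These promoters differed in which motif they held. That of Mrpl35 held 1 YY1 match, that of Mrpl3 held 1 ETS match, and that of Mrps12 held 1 ETS, 1 YY1 and 1 SP1 match. The GC-rich promoter of Mrps6 (73.7% G or C) held 4 SP1 matches, the first 2 of which share a base, and that of Tomm40 held 3. The promoter of Timm9 held 2 E-boxes. None of the 6 held an NRF1 match in either form, which says only that these letters are not in these windows.

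**Figure D4:**
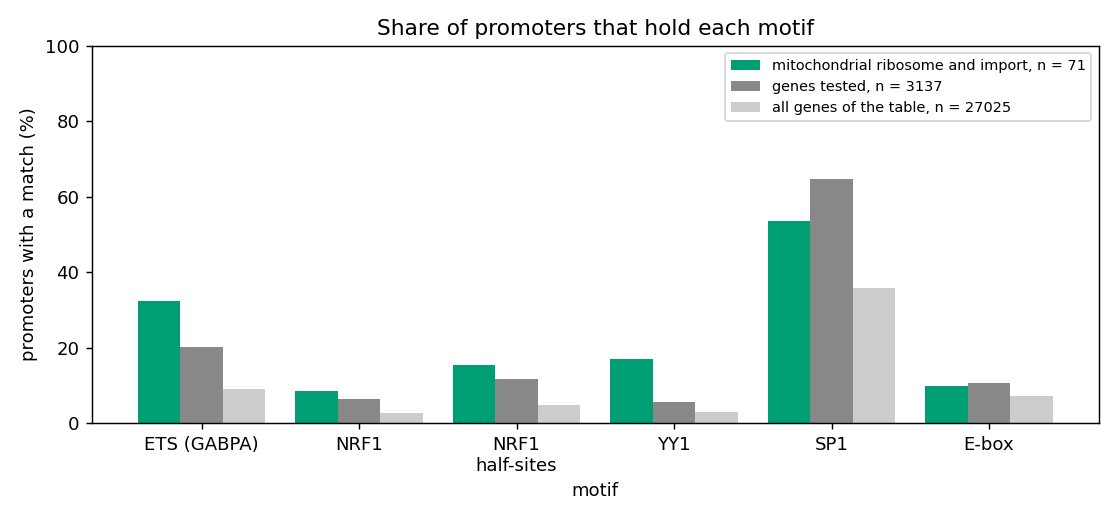
Share of promoters (y axis, percent) with at least 1 match to each motif (x axis) among the 71 genes of the mitochondrial ribosome and import, among genes tested and among all genes of the promoter table. YY1 and ETS matches are the motifs with the highest share relative to the genes tested, and the SP1 share lies below that of the genes tested.

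Over all 71 promoters, 32.4% held the ETS motif, against 20.3% of 3137 promoters of genes tested and 9.12% of 27025 in the table. The YY1 motif stood in 16.9%, against 5.74% and 2.88%, and the NRF1 motif in 8.45%, against 6.28% and 2.8% (15.5%, 11.6% and 4.78% for its second form). SP1 matches stood in 53.5%, against 64.8% of genes tested, and E-boxes in 9.86%, against 10.6%. At least 1 of the ETS, YY1 and first NRF1 motifs stood in 52.9% of large subunit, 52.4% of small subunit and 37.5% of import promoters, against 29.6% of genes tested. The 12 genes with a YY1 match had a median log2 ratio of 0.32, and the 59 without had 0.22. The 23 genes with an ETS match had 0.26 and the 48 without 0.19, and the 6 with an NRF1 match had 0.20 and the 65 without 0.24. For the second NRF1 form that order turned, with 0.33 in 11 genes and 0.22 in the other 60. These are descriptions over few genes, chosen after the values were seen, and no test was made.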

How the data were processed

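The study measured RNA of sorted GFP+ and GFP- kidney cells on 3 arrays of the Mouse Compugen design. The labels state that no dyes were swapped, without naming the dyes. Per the labels, images were read with Imagene 5.5, each array was normalized by Lowess with 20% of the points in a local fit, and a floor of 10 was set on the control channel. The deposited values are log2 ratios of the channels: taken as powers of 2, 99.97% of them lie within 0.01 of whole thousandths, and taken as powers of e 2.37% do. No intensities were used here, so signal over background and probe sequence could not be examined. Precision is limited by having 3 arrays.

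Probes with 1 gene symbol in the platform annotation and values on all 3 arrays (3990 probes, 3915 genes) were averaged per gene; each of the 77 genes described had 1 probe. Symbols are the platform's. Whether each gene's mean differed from 0 was tested two-sided by lmFit and eBayes of limma 3.58.1, run in R 4.3.3. Benjamini-Hochberg adjustment ran over all 3915 genes, with a threshold of 0.05. The procedure was tested on simulated arrays with independent noise of equal spread. That simulation does not cover an array that departs from the others, as array 1 did here. All arrays belong to a single group. Nothing in the labels states that they hold separate cell pools, so the p-values cover the variation among arrays only, part or all of which may be technical. Motif counts used Python 3.11.15. The motif forms were chosen after the ratios and earlier results were seen, and the NRF1 forms replaced a longer one searched first, whose counts are not given here. Every gene of the class with values on all arrays was eligible to be named, and of other lists the 4 of largest absolute mean; other genes named were chosen after their values were seen. The genes and lists were chosen with earlier results of these data known. Alternatives were centring, quantile normalization, values on at least 2 arrays, leaving out each array, other probe and symbol rules, array weights, an ordinary statistic, averaging arrays 2 and 3, and robust eBayes.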

Additional observations from a re-analysis of the deposited data

How the results depend on the processing

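The medians kept their sign under centring, quantile normalization, values on at least 2 arrays, the leaving out of each array, the other probe rule and updated symbols: 0.19 to 0.33 for the large subunit, 0.25 to 0.35 for the small subunit and 0.052 to 0.16 for import. Counts depended on array 1. Leaving out each array gave 23 to 1078 genes higher and 51 to 737 lower over all genes (54 and 55 with all arrays), and 0 to 35 of the 77 mitochondrial genes higher and 0 to 6 lower; the high ends are without array 1, and without array 2 the 1 gene was Mrps6. Array weights (limma, gene by gene, since the REML fit did not converge) gave array 1 a weight of 0.15 against 1.55 and 4.30, with 1309 genes higher and 861 lower, and 40 and 8 of the 77 (33.4% and 22% of all genes). Quantile normalization gave 84 genes lower, an ordinary one-sample statistic 1 higher and 0 lower, and arrays 2 and 3 averaged 29 higher; none of these 3 called any of the 77. The cause of these shifts was not tested. The mean of 11 of the 77 genes changed sign without array 1, 9 without array 2, 8 without array 3 and 2 after centring. Each ratio already pairs both fractions on an array, so no further block was fitted.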
